A study of Mus musculus with 29 samples.

Results

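The comparison described here is between 3 C57BL/6 wildtype mice that were immunosuppressed with tacrolimus from the day of a photothrombotic stroke (WT-Tacr) and 4 wildtype mice with the same stroke and no drug (WT). These 7 mice were taken from the 29 samples of the series by their labelled genotype and treatment, and no measured value entered the choice. All were C57BL/6 mice of both sexes at 3 months of age, and a thrombus had been induced in the right sensorimotor cortex by light after injection of the dye Rose Bengal. Tacrolimus was delivered by a subcutaneous osmotic pump. Tissue was dissected from around the lesion 21 days post injury (dpi), and polyadenylated RNA was sequenced and counted per gene. The titles carry 2 prefixes, Imm2 and TF, whose meaning the labels do not give. Mice that share a prefix are called a cohort here. WT-Tacr 1, WT 1 and WT 2 belonged to Imm2, and WT-Tacr 2, WT-Tacr 3, WT 3 and WT 4 belonged to TF. A group of 4 non-stroked WT mice, all from Imm2, served as the background level (the methods name the contralesional site as the control tissue, and the labels do not say which site these samples came from), and stroked and non-stroked Rag2-/- and NSG mice without the drug, also all from Imm2, were used to define a list of stroke-response genes.

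Tacrolimus (FK506) is a calcineurin inhibitor. It binds the immunophilin FKBP12, and the complex blocks the phosphatase calcineurin, which otherwise dephosphorylates the NFAT transcription factors and so drives interleukin 2 production in activated T cells. Calcineurin is also abundant in neurons. Weeks after a cortical stroke, the tissue around the infarct normally holds activated microglia and infiltrated macrophages, reactive astrocytes that form the glial scar, and fibroblasts that lay down collagen in the fibrotic core.

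The 7 libraries held between 21309103 and 43403413 counts. Depth differed by cohort, the middle library holding 39695671 counts in Imm2 and the TF median being 24273187. Of 25746 genes in the files, 17031 passed the filter on low counts and were tested. The Y-linked genes Ddx3y, Eif2s3y, Kdm5d and Uty were expressed in the 3 stroked Imm2 mice and were at or near 0 in the 4 TF mice. Ddx3y, for example, had 1775 counts in WT-Tacr 1, 1404 in WT 1 and 1534 in WT 2, and 0 counts in each TF mouse. Cohort and Y-linked expression therefore coincided in these mice and cannot be told apart, but each drug group held mice of both kinds. In bulk tissue, fewer cells of a type and less RNA per cell cannot be told apart, which applies to every group of genes below.

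No gene passed the test between WT-Tacr and WT. With edgeR's quasi-likelihood test, 0 of 17031 genes had an adjusted p under 0.05 and an absolute log2 fold change above 1 (0%), and the smallest adjusted p was 0.311. At an unadjusted p under 0.05 stood 2168 genes (12.7%), of which 941 were higher (5.53%) and 1227 lower (7.2%) under tacrolimus. The 3 drug-treated and 4 untreated values did not overlap for 1071 genes (6.29%), 462 of them higher (2.71%) and 609 lower (3.58%). The limma voom test with sample weights also called 0 genes, with 2358 at an unadjusted p under 0.05, and DESeq2 called 2 genes, Dsp and C1ql2, with 2271 at an unadjusted p under 0.05. Of the 7 mice, 1 decided this count. Without WT-Tacr 3, edgeR called 689 genes (3.99%), 23 higher and 666 lower, whereas leaving out any other mouse left the count at 0. The number of genes at an unadjusted p under 0.05 was 4171 without WT-Tacr 3 and 506 without WT-Tacr 2. The labels give no reason to leave out any of the 7 mice. For WT-Tacr 1 and WT-Tacr 2, however, a number in the title differs from that in the name of the deposited table. Each table was assigned to the sample it is recorded under.

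**Figure D1:**
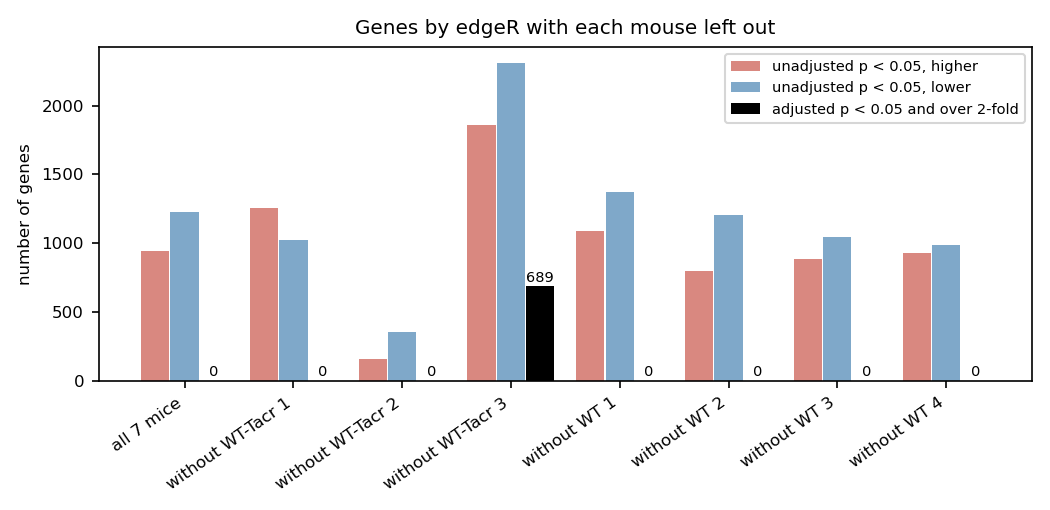
Number of genes (vertical axis) that differed between WT-Tacr and WT by edgeR with all 7 mice and with each mouse left out in turn (horizontal axis). Red and blue bars count genes at an unadjusted p under 0.05, higher and lower under tacrolimus, and black bars count genes past the adjusted p and the fold threshold, which stood at 689 without WT-Tacr 3 and at 0 in the other cases.

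The 3 drug-treated mice did not lie together. A list of 504 genes that rose after stroke in both Rag2-/- and NSG mice (2.96% of those tested, by edgeR at the same thresholds) gave each mouse a position between non-stroked and stroked tissue. The contrasts that chose the list left out the 7 mice. The fit behind them did not, and shared its filter, normalisation and spread with these mice. The list's median level above the non-stroked WT mean, on the log2 scale, was 0.61 in WT-Tacr 1, 0.20 in WT-Tacr 2 and 2.04 in WT-Tacr 3. In untreated stroked mice the same median was 1.57, 1.62, 2.16 and 2.22, and the 4 non-stroked mice lay between -0.09 and 0.11. The non-stroked mice, and the mice that defined the list, were all from Imm2. For the TF mice this level therefore also holds any difference between the cohorts, and the stroke and the cohort cannot be told apart in it. WT-Tacr 1 and WT-Tacr 2 thus lay below all untreated stroked mice, and WT-Tacr 3 lay within their pooled range. The untreated levels differed by cohort, and against the 2 untreated mice of its own cohort, at 2.16 and 2.22, WT-Tacr 3 was lower as well, by a small amount. Each untreated mouse is part of the stroked WT mean, so a low count of genes nearer to the non-stroked mean is partly built in for it. Of the 504 genes, 391 in WT-Tacr 1 and 451 in WT-Tacr 2 were nearer to the non-stroked than to the stroked WT mean, against 5 in WT-Tacr 3 and 1 to 9 in the untreated mice. The spread differed accordingly. The median SD of these genes was 0.97 log2 units in WT-Tacr and 0.41 in WT, and it was the larger in WT-Tacr for 485 of the 504 (96.2%), compared with 57.5% of all genes tested. The SE and unadjusted p values given below take their spread from all 29 samples. For such genes they therefore understate the spread between the WT-Tacr mice. In an edgeR fit of the 7 mice alone, 969 of 15843 genes stood at an unadjusted p under 0.05, against 2168 of 17031.

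**Figure D2:**
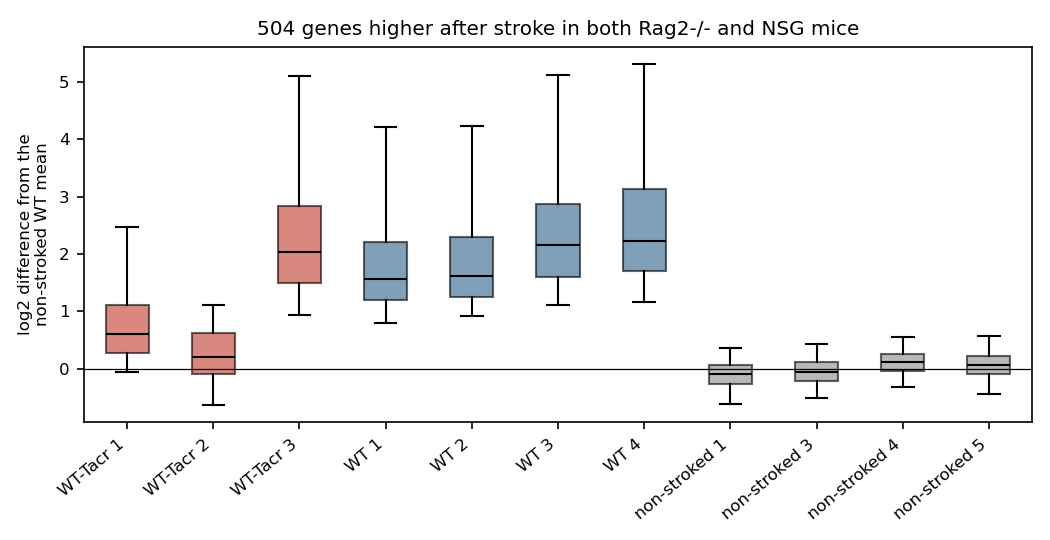
Log2 difference from the non-stroked WT mean (vertical axis) of the 504 genes that rose after stroke in both Rag2-/- and NSG mice, for each mouse (horizontal axis). Boxes span the quartiles with the median as a line and whiskers the 5th to 95th percentiles, in red for WT-Tacr, blue for WT and grey for non-stroked WT. WT-Tacr 1 and WT-Tacr 2 have medians of 0.61 and 0.20, and WT-Tacr 3, at 2.04, lies among the untreated stroked mice. All non-stroked mice are from Imm2.

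Between the groups, 499 of the 504 stroke-response genes had a log2 fold change below 0 (47.6% of all genes did), with a median of -0.76 against 0.01 over all genes, and 251 were lower at an unadjusted p under 0.05, none of them past the adjusted threshold. The values of 43 did not overlap and were lower under tacrolimus. The counts given for each gene list below stand against the shares over all genes, which were 7.2% lower and 5.53% higher at an unadjusted p under 0.05, 3.58% lower and 2.71% higher without overlap, and 3.86% called lower without WT-Tacr 3. Leaving out WT-Tacr 3 keeps WT-Tacr 1 and WT-Tacr 2, already seen to lie low. Calls made without WT-Tacr 3 therefore describe those mice and are no test of the drug. With any other mouse left out, 0 genes were called in every list. The stroke-response median was -0.78 within TF and -1.11 within Imm2. Without WT-Tacr 3 it was -1.52, with 362 of the 504 called lower, and without WT-Tacr 1 or WT-Tacr 2 it was -0.54 or -0.46 with 0 called. On the first principal component of the 500 most variable genes, which held 68.1% of the variance, WT-Tacr 1 (-10.99) and WT-Tacr 2 (-18.9) lay between the non-stroked mice (-32.7 to -28.9) and the untreated stroked mice (15 to 46.7), and WT-Tacr 3 was at 40.3.

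Gfap (ENSMUSG00000020932), the intermediate filament of reactive astrocytes, followed this order. Its level was 267 normalised counts-per-million (CPM) in WT-Tacr 1, 189 in WT-Tacr 2 and 928 in WT-Tacr 3, compared with 903, 765, 1066 and 1144 CPM in the untreated mice and 102 to 172 in non-stroked mice. The groups overlapped through WT-Tacr 3 alone. The log2 fold change was -1.07 ± 0.35 (SE, edgeR adjusted p = 0.311), and it was -2.08 without WT-Tacr 3 (edgeR adjusted p = 0.000129, with 0.000129 to 1 over all alternatives). Vim, another filament protein of reactive astrocytes, was at 36.2, 27.6 and 194 CPM under tacrolimus and at 125, 117, 199 and 225 CPM without it. Over the 18 reactive astrocyte genes the median log2 fold change was -0.87, all 18 were below 0, and 9 were lower at an unadjusted p under 0.05. Those 9 included Emp1 (-1.31), Serpina3n (-1.18), Cd44 (-1.05) and the oncostatin M receptor gene Osmr (-0.78), and Osmr was the only one of the 18 whose values did not overlap. Without WT-Tacr 3, 13 of the 18 were called lower. Genes that mark astrocytes regardless of injury had a smaller median, at -0.15 over 12 genes. Of these 12, 10 were below 0, 3 were lower and 0 higher at an unadjusted p under 0.05, and 1 was lower without overlap. The gap junction gene Gja1 was at 193, 164 and 222 CPM under tacrolimus and at 223, 296, 287 and 224 CPM without it, a difference of -0.41 ± 0.12 in which even WT-Tacr 3 lay marginally below the untreated mice (edgeR adjusted p = 0.311).

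Microglial and macrophage genes were distributed in the same manner. Of 23 genes known from disease-associated microglia, all had a log2 fold change below 0, the median was -0.71, and 14 were lower at an unadjusted p under 0.05 without any being called. Apoe, the lipid carrier, was at 1361, 991 and 3640 CPM under tacrolimus and at 3170, 2958, 3035 and 3656 CPM in untreated mice. Cst7, a cysteine protease inhibitor, was at 1.05, 0.0832 and 6.41 CPM, compared with 9.80, 5.67, 11.3 and 9.96 CPM. In both genes WT-Tacr 1 and WT-Tacr 2 were below every untreated mouse and WT-Tacr 3 was not. Homeostatic microglial genes differed less, with a median of -0.27 over 14 genes of which 6 were lower at an unadjusted p under 0.05, among them the colony stimulating factor receptor gene Csf1r (-0.42 ± 0.13). The macrophage list had a median of -0.79, with 8 of 19 lower at that level. Lyz2, lysozyme of myeloid cells, was at 19.98, 6.83 and 421 CPM under tacrolimus and 120, 146, 325 and 474 CPM without it. Without WT-Tacr 3, 18 of 23 disease-associated and 9 of 19 macrophage genes were called lower.

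Complement, chemokine and antigen presentation genes, which these cells largely supply, lay lower in WT-Tacr 1 and WT-Tacr 2 as well. The complement list had a median log2 fold change of -0.87 with 9 of 15 lower at an unadjusted p under 0.05, and C1qa, a chain of the first complement component, was at 74.1, 44.5 and 193 CPM under tacrolimus against 196, 196, 174 and 203 CPM. The 8 MHC class II genes had a median of -0.96, but only Ctss and H2-DMb1 reached that level. Cd74, the invariant chain, was at 7.25, 2.79 and 51.3 CPM compared with 66.5, 25.6, 39.4 and 54.4 CPM, and the class II median within Imm2 was -2.10 and within TF -0.80. Of 21 chemokine genes the median was -0.69, with 5 lower and 1 higher. The interferon-induced chemokine gene Cxcl9 was at 0.0243, 0 and 0.425 CPM under tacrolimus and at 1.94, 1.44, 0.652 and 0.489 CPM without it, so its values did not overlap although they were low. The one higher was Cx3cl1, the fractalkine made by neurons, at 957, 1016 and 823 CPM compared with 873, 711, 674 and 731 CPM (log2 fold change 0.32 ± 0.10, edgeR adjusted p = 0.311). The 11 genes of MHC class I presentation had a median of -0.62 with 4 lower. The heavy chain genes among them, such as H2-K1, resemble each other closely, so reads may be divided uncertainly between them. Interferon-response genes had a median of -0.39 with 2 of 25 lower, a share near that of all genes. The size of these medians depended on single mice, although all stayed below 0 with each mouse left out. Without WT-Tacr 3, the class II median was -2.93 with 7 of 8 called lower, complement had 11 of 15, chemokines 9 of 22, class I 8 of 11 and the interferon list 9 of 25 called lower at a median of -1.04. Without WT-Tacr 1 the interferon median was -0.11, and without WT-Tacr 2 the class II median was -0.52.

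**Figure D3:**
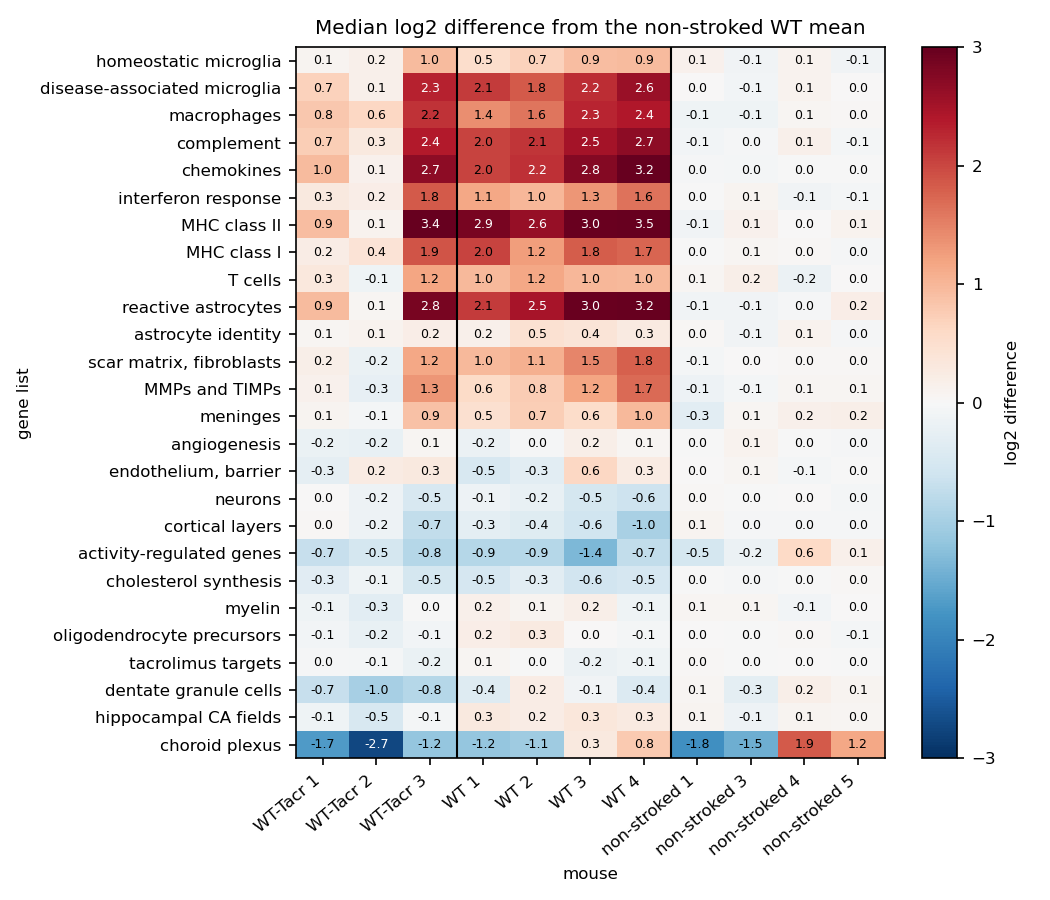
Median log2 difference from the non-stroked WT mean over each gene list (rows) in each mouse (columns), on a scale from -3 (blue) to 3 (red). All non-stroked mice are from Imm2. In the rows from homeostatic microglia down to meninges WT-Tacr 1 and WT-Tacr 2 are below all 4 WT mice and WT-Tacr 3 is at or above the lowest of them, whereas in the dentate granule cell row all 3 WT-Tacr mice (-0.70, -0.99 and -0.85) are below the 4 WT mice.

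Genes of T cells, the known target of the drug, were at low levels in this tissue. The T cell list had a median of -0.52, with 6 of 21 genes lower at an unadjusted p under 0.05 and 18 below 0. Trac, the constant chain of the alpha T cell receptor, was at 0.389, 0.458 and 0.734 CPM under tacrolimus and at 0.934, 1.25, 0.826 and 0.733 CPM in untreated mice. Trbc2, a constant chain of the beta receptor, lay in the other direction. Its log2 fold change ranged from 0.40 to 0.88 over the alternatives and passed the threshold in 0 of them. Cd8a was at 0.0730, 0.0416 and 0.232 CPM, compared with 0.808, 0.445, 0.0435 and 0.275 CPM, and overlapped widely. Interleukin 2 itself, the classical product of the calcineurin pathway, had too few counts to be tested, with 0 in each drug-treated mouse and 0, 4, 1 and 0 counts in WT 1 to WT 4. A difference in Il2 was not detectable at this depth. Natural killer cell genes had a median of -1.54 over only 6 tested of 11, and Klrk1, an activating receptor of these cells, had no count in WT-Tacr 1 or WT-Tacr 2 and 0.155 CPM in WT-Tacr 3 against 0.130 to 0.397 CPM in untreated mice. Of 10 B cell and immunoglobulin genes, 1 was lower and 1 higher at that level, with a median of -0.01. Cytokine genes had a median of -0.43 with 5 of 15 lower, including Tgfb1 (-0.80 ± 0.25) and the alarmin Il33 (-0.35 ± 0.12), whose values did not overlap. The gene higher at that level was Nos2, the inducible nitric oxide synthase, at 0.536, 0.708 and 0.425 CPM compared with 0.278, 0.250, 0.261 and 0.367 CPM.

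The fibrotic scar list had the most members lower at an unadjusted p under 0.05 among the marker lists. Of 25 matrix and fibroblast genes, 16 were lower at that level, the median was -0.91 and the values of 5 did not overlap. Lum, the collagen-binding proteoglycan lumican, was at 2.73, 1.37 and 13.6 CPM under tacrolimus and at 13.8, 23.1, 28.5 and 30.9 CPM without it, compared with 0.883 to 1.73 CPM in non-stroked mice. Its difference was -2.04 ± 0.67 (edgeR adjusted p = 0.311). Fn1, fibronectin, was at 88.4, 67.8 and 128 CPM against 137, 143, 228 and 206 CPM. Tnc, tenascin C, was at 3.70, 3.58 and 8.81 CPM against 9.44, 10.3, 10.4 and 10.1 CPM. In these 3 genes WT-Tacr 3 too lay below every untreated mouse, though by less than the other two. The fibrillar collagen genes Col1a1 (-1.53), Col1a2 (-1.51) and Col3a1 (-1.70) were lower at an unadjusted p under 0.05 but overlapped. Of 15 matrix metalloproteinase and inhibitor genes, all were below 0 with a median of -0.62, and 4 were lower at that level. Mmp13, a collagenase, was at 0.122, 0 and 4.44 CPM under tacrolimus and at 10.6, 19.8, 5.91 and 5.59 CPM in untreated mice. None of the 11 proteoglycan genes of the lecticans and related families reached that level (median -0.03). Without WT-Tacr 3, 13 of the 25 scar genes and 7 of the 15 metalloproteinase genes were called lower. Meningeal markers were lower alongside. Of 12 such genes, 5 were lower at an unadjusted p under 0.05 and 4 did not overlap, and the transcription factor gene Foxc2 was at 1.70, 0.957 and 2.86 CPM compared with 3.56, 3.86, 5.87 and 5.07 CPM. Fibroblasts of the meninges share matrix genes with the scar, and the part of attached meninges in the matrix result was not tested.

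**Figure D4:**
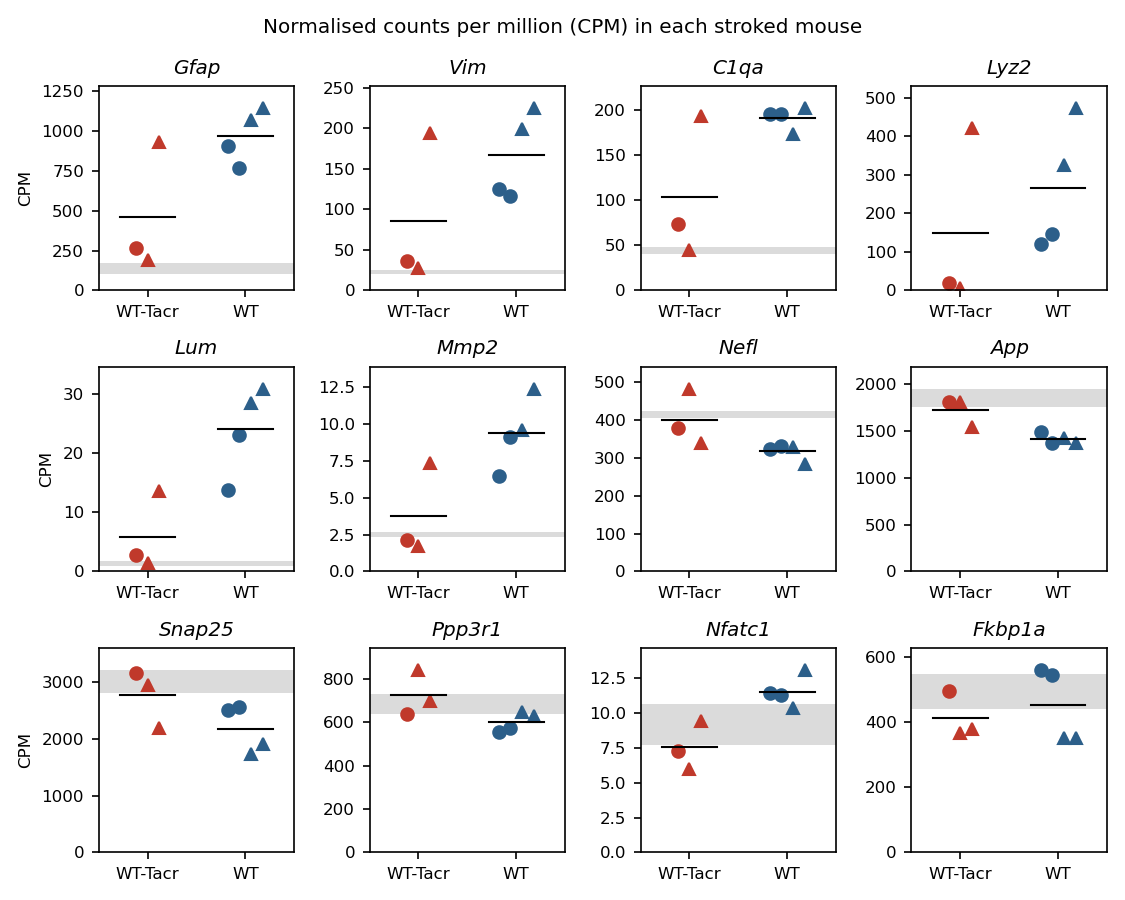
Normalised CPM (vertical axes, from 0) of 12 genes in each stroked mouse, WT-Tacr in red and WT in blue, with circles for cohort Imm2 and triangles for TF. Horizontal lines are group means and the grey band is the range of the 4 non-stroked WT mice. For Gfap, Vim, C1qa and Lyz2 the red triangle of WT-Tacr 3 lies among or near the blue points while the other 2 red points lie at or near the grey band. For Lum, Nfatc1, Nefl and App the groups do not overlap.

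Among the genes whose proteins the study stained in tissue sections, Gfap was lowest relative to WT. Aif1, which encodes the microglial protein Iba1, was at 2.92, 4.37 and 10.5 CPM under tacrolimus and at 7.57, 6.89, 7.95 and 9.59 CPM without it, and WT-Tacr 3 had the highest value of the 7 (log2 fold change -0.44 ± 0.28, edgeR adjusted p = 0.514). Nefl, neurofilament light chain, was at 378, 482 and 338 CPM compared with 323, 332, 329 and 284 CPM, without overlap and with a difference of 0.33 ± 0.12 (edgeR adjusted p = 0.311). Nefh, the heavy chain (0.28 ± 0.19), and Rbfox3, which encodes NeuN (0.22 ± 0.18), overlapped. Pecam1, which encodes the endothelial protein CD31, was at 13.5, 21.0 and 16.9 CPM against 12.7, 15.3, 23.3 and 19.2 CPM, a difference of -0.04 ± 0.19. Anpep, which encodes the pericyte protein CD13 and is also made by myeloid cells and fibroblasts, was at 5.45, 3.41 and 17.4 CPM against 11.4, 13.8, 21.3 and 24.3 CPM (-1.02 ± 0.44).

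Endothelial and angiogenesis genes as a whole differed little. None of 17 endothelial and blood-brain barrier genes reached an unadjusted p under 0.05 (median -0.01). Of 34 angiogenesis genes, 2 were higher and 3 lower at that level (median -0.06). Vegfa, the principal endothelial growth factor, was at 58.7, 74.6 and 59.3 CPM under tacrolimus and at 58.6, 51.7, 54.6 and 53.3 CPM without it, a difference of 0.23 ± 0.10 without overlap, and it was at 76.3 to 90.7 CPM in non-stroked mice. Apln, which encodes apelin, was the other higher gene (0.41). The lower genes were the angiopoietin genes Angpt1 (-0.75) and Angpt2 (-0.98) and the co-receptor gene Nrp2 (-0.70). Of 14 mural cell genes, 11 were below 0, with a median of -0.19 (-0.35 within TF and -0.23 within Imm2). Anpep and Tagln (-0.63) were lower at an unadjusted p under 0.05.

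Neuronal genes lay in the other direction and by smaller amounts. Of 16 pan-neuronal genes, 4 were higher at an unadjusted p under 0.05 and 0 lower, with a median of 0.14. Snap25, a protein of synaptic vesicle fusion, was at 3159, 2941 and 2195 CPM under tacrolimus and at 2509, 2560, 1723 and 1910 CPM in untreated mice, compared with 2797 to 3211 CPM in non-stroked mice. Nefm, the medium neurofilament chain, was at 287, 293 and 224 CPM compared with 260, 165, 175 and 147 CPM (0.52 ± 0.17, edgeR adjusted p = 0.311). In both genes WT-Tacr 3 lay within the untreated range. Of 15 markers of cortical layers, 5 were higher at that level, with a median of 0.37, and the upper-layer gene Lamp5 was at 287, 312 and 143 CPM compared with 171, 174, 124 and 110 CPM. Activity-regulated genes had a median of 0.40 (0.46 within TF and 0.13 within Imm2), with 4 of 20 higher, including Nptx2 (0.54 ± 0.18) and Homer1 (0.53 ± 0.22). Of the 20, 3 were below 0, and without overlap 1 was lower and 0 were higher. Cholesterol synthesis genes, which neurons and astrocytes both use, were all above 0, with a median of 0.20 and 5 of 16 higher at that level, among them the regulator gene Srebf2 (0.26 ± 0.10). Myelin genes were all below 0 (median -0.24) with 1 of 14 lower, and oligodendrocyte precursor genes had a median of -0.26 with 3 of 12 lower, Enpp6 of newly forming oligodendrocytes among them (9.79, 7.28 and 12.1 CPM compared with 13.9, 14.4, 14.6 and 12.9 CPM).

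The genes of the drug's own pathway showed small differences. Of 22 FK506-binding protein, calcineurin, regulator and NFAT genes, 3 were higher and 3 lower at an unadjusted p under 0.05, against 5.53% and 7.2% of all genes, and the median was 0.07. Fkbp1a, which encodes the drug-binding protein FKBP12, was at 496, 365 and 378 CPM under tacrolimus and at 560, 544, 353 and 350 CPM without it. Its values separated by cohort and not by drug, with a difference of -0.13 ± 0.15. The calcineurin catalytic subunit genes Ppp3ca (0.10 ± 0.13) and Ppp3cb (0.19 ± 0.08) and the regulatory subunit gene Ppp3r1 (0.27 ± 0.10) lay slightly higher. Rcan1, a calcineurin inhibitor whose transcription is known to respond to NFAT, was at 58.1, 58.0 and 54.9 CPM compared with 57.8, 54.3, 53.2 and 51.7 CPM, and Rcan2 differed by 0.29 ± 0.13. Nfatc1 was at 7.25, 5.99 and 9.46 CPM under tacrolimus and at 11.4, 11.3, 10.4 and 13.1 CPM in untreated mice, without overlap (-0.61 ± 0.21, edgeR adjusted p = 0.311). Nfatc4 was lower by a similar amount (-0.65 ± 0.30) but overlapped, and Nfatc2 (-0.20 ± 0.18) and Nfatc3 (-0.16 ± 0.15) differed less. Fkbp5, which is known as a glucocorticoid-induced gene, was at 72.8, 42.7 and 46.3 CPM compared with 64.0, 68.2, 79.7 and 80.5 CPM, and its log2 fold change was -0.85 within TF and 0.14 within Imm2.

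The genes named as leading were those with the smallest unadjusted p among genes at a mean of at least 1 CPM whose values did not overlap. Among the 10 leading higher genes were App, the amyloid precursor protein gene, Syt12, a synaptotagmin, and Slc25a27, a mitochondrial carrier of neurons. App was at 1814, 1809 and 1544 CPM under tacrolimus and at 1490, 1378, 1431 and 1375 CPM in untreated mice (0.28 ± 0.08, edgeR adjusted p = 0.311), and at 1758 to 1952 CPM in non-stroked mice. The 10 had log2 fold changes from 0.20 (Vkorc1l1) to 1.37 (Agmat), and the others were Ptges3l, Tspyl5, Btbd10, Pde4c and Ublcp1. Their separation was set by this choice and is no result in itself. Among the 10 leading lower genes were Tnxb, a tenascin of connective tissue, Gypc, a glycophorin, and Mr1, an MHC class I-like gene that presents vitamin metabolites. Tnxb was at 4.48, 3.41 and 5.10 CPM under tacrolimus and at 10.98, 12.5, 10.4 and 8.58 CPM without it (-1.29 ± 0.31), and at 7.13 to 8.80 CPM in non-stroked mice. The others were C1ql2, Dsp, Tspan18, Rbms2, Ccdc9b, Slc16a10 and Map3k15, with log2 fold changes from -5.85 (Dsp) to -0.45 (Rbms2). The separation of these lower genes was set by the choice as well.

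C1ql2 and Dsp, which DESeq2 called, are known from granule cells of the dentate gyrus. C1ql2 (ENSMUSG00000036907), a synaptic organiser of mossy fibres, was at 2.12, 0.458 and 0.579 CPM under tacrolimus, at 15.5, 20.8, 12.3 and 5.93 CPM in untreated stroked mice and at 9.11 to 24.6 CPM in non-stroked mice. Its difference was -3.58 ± 0.76 (edgeR adjusted p = 0.311, DESeq2 adjusted p = 0.00133). Dsp (ENSMUSG00000054889), desmoplakin, was at 0.219, 0.125 and 0.348 CPM, compared with 6.29, 23.7, 14.7 and 9.38 CPM, and at 4.82 to 18.1 CPM in non-stroked mice (-5.85 ± 1.36, edgeR adjusted p = 0.311, DESeq2 adjusted p = 0.000107). Over all alternatives the adjusted p ranged from 0.00133 to 1 for C1ql2 and from 0.000107 to 1 for Dsp. The separation of the 3 drug-treated mice from the untreated stroked mice was set by the choice of leading genes. In both genes these 3 mice, WT-Tacr 3 included, also lay below the non-stroked WT mice, which did not enter that choice. A list of 16 dentate granule cell genes was therefore added after these genes had been seen. Of the 16, 9 were lower and 0 higher at an unadjusted p under 0.05, 8 did not overlap, and the median was -0.66. C1ql2 and Dsp, which led to the list, are among these, and without them 7 of 14 were lower, 6 without overlap, with a median of -0.34. Prox1, the transcription factor of granule cells, was at 17.4, 15.5 and 15.6 CPM under tacrolimus and at 26.1, 55.2, 38.3 and 22.4 CPM in untreated mice, and Cabp7, a calcium-binding protein, was at 17.9, 16.6 and 15.9 CPM compared with 53.3, 67.9, 52.1 and 33.5 CPM. Calb1 and Plk5 of the same list were not lower (0.25 and 0.33). In a second added list, of 14 genes known from the hippocampal CA fields, 6 were lower, 4 without overlap, and the median was -0.38. It holds the leading gene Map3k15, without which 5 of 13 were lower, 3 without overlap, with a median of -0.29. Spink8 of this list was at 0.706, 0.416 and 0.464 CPM compared with 1.77, 2.22, 2.56 and 1.71 CPM. These genes are known to mark the hippocampus, which lies beneath the lesioned cortex, so less transcript per cell and less hippocampal tissue in the 3 samples cannot be told apart, and their part in the other differences was not tested. Choroid plexus genes varied widely between mice of the same group. Ttr, the transthyretin of this epithelium, was at 1.24, 1.37 and 9.54 CPM under tacrolimus, at 3.05, 4.31, 134 and 223 CPM in untreated mice and at 0.871 to 730 CPM in non-stroked mice. The list had a median log2 fold change of -1.65 over 12 genes. All 12 were below 0 and 4 did not overlap (Kl, Folr1, Prlr and Sostdc1), but none reached an unadjusted p under 0.05. The choroid plexus lies in the ventricles, outside the cortex, and its part in the other differences was not tested.

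**Figure D5:**
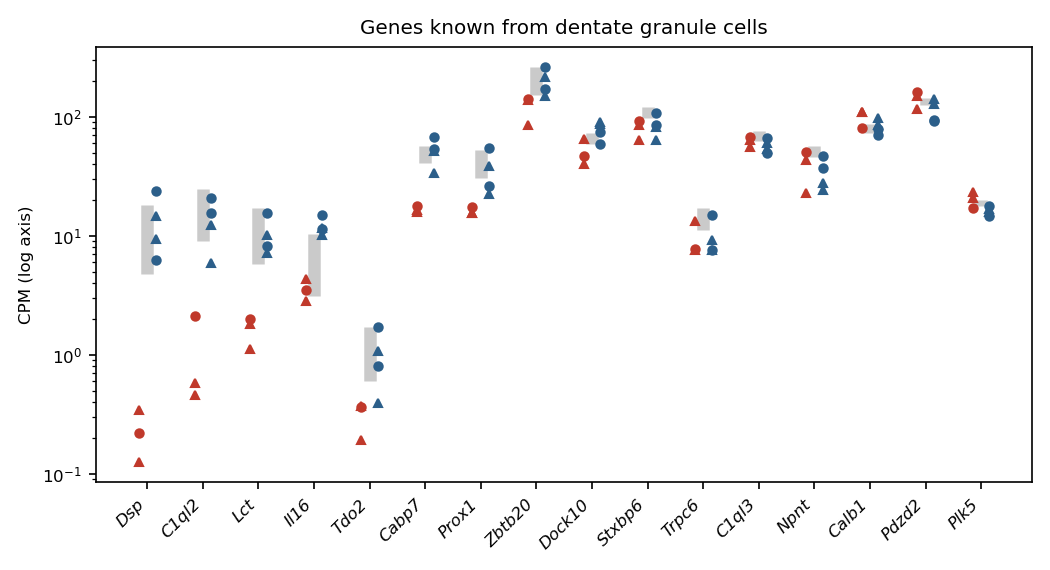
CPM (vertical axis, log scale) of 16 genes known from dentate granule cells, ordered by log2 fold change, in each WT-Tacr mouse (red) and WT mouse (blue), with circles for cohort Imm2 and triangles for TF and a grey bar for the range of the 4 non-stroked WT mice. For 8 genes, from Dsp to Zbtb20, the 3 red points lie below the 4 blue points, and for the genes at the right, such as Calb1 and Plk5, they do not.

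Within the cohorts the comparison was thin, at 2 against 2 mice in TF and 1 against 2 in Imm2, where the lone drug-treated mouse was assumed to vary like the other groups. By edgeR 0 genes were called in either, with 1785 (10.5%) and 1087 (6.38%) at an unadjusted p under 0.05. The difference of the drug effect between cohorts was called for 0 genes, with 222 at an unadjusted p under 0.05 (1.3%) and a smallest adjusted p of 0.184. That gene was Elobl, at 0.949 CPM in WT-Tacr 1 and at 0 to 0.261 CPM in the other 6 mice. Next was Plin4, a lipid droplet protein gene, at 37.3 CPM in WT-Tacr 1 against 13.6 and 14.7 CPM in WT 1 and WT 2, and at 13.9 and 14.3 CPM in WT-Tacr 2 and WT-Tacr 3 against 34.3 and 32.7 CPM in WT 3 and WT 4. The log2 effect of tacrolimus on Plin4 was 1.40 in Imm2 and -1.25 in TF, a difference of -2.65 ± 0.57 (edgeR adjusted p = 0.999989).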

How the data were processed

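The authors deposited whole-number read counts per gene for each of 29 libraries, made from polyadenylated RNA with a stranded kit, with Ensembl gene IDs. The aligner, genome build and use of strand in counting are not given in the sources used here, so no coordinates are given. Symbols came from GENCODE M21 (25635 of 25746 IDs matched). Xist and Ctgf were not analysed here. Groups came from the labels, and cohorts from the title prefixes.

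Counts were normalised by TMM, filtered by group (filterByExpr) and fitted with edgeR 4.0.16 (R 4.3.3) in one quasi-likelihood model over 8 groups and all 29 samples, so that the spread was shared. Benjamini-Hochberg adjusted p under 0.05 with absolute log2 fold change above 1 was a call. The SE is the log2 fold change over the root of F. CPM used the TMM factors, and log2 CPM a prior count of 2. Cohort effects were contrasts of group-by-cohort cells. Alternatives used DESeq2 1.42.0 and limma 3.58.1. The fit was also run on simulated counts with known changes in the WT-Tacr mice. These held no cohort difference and no drug-treated mouse that stood apart, so the run does not cover those features. Named genes were the 10 per direction with the smallest unadjusted p among non-overlapping genes of at least 1 CPM, the stained proteins, the 2 most abundant and 2 smallest-p members of each list, and 5 cohort genes. Members beyond these (named in the text from the counts of a list, such as Osmr, the collagens and Prox1) were chosen after their values were seen. The comparison, lists and tests were chosen with earlier results of these data known. Lists carry no test. Precision is limited by the 3 against 4 mice and, for low genes, by depth.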

Additional observations from a re-analysis of the deposited data

Results flagged for a closer look

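Of 141 gene and list values checked for a single distant mouse among the 4 untreated stroked mice, 4 were picked out by the gap of the extreme mouse to its neighbour as a share of the whole range, and chance picks out about 1 in 20 such groups. For Pde4c the share was 0.885, with WT 2 at 0.945 CPM and the others at 2.22, 2.26 and 2.05 CPM. For Rcan2 it was 0.843, with WT 1 at 273 CPM and the others at 222, 229 and 230 CPM. For Angpt1 it was 0.836, with WT 1 at 6.03 CPM and the others at 9.06, 9.35 and 9.81 CPM. For the median of the T cell list above the non-stroked mean it was 0.883, with WT 2 at 1.17 log2 units and the others at 0.98, 0.99 and 0.96. No difference of the drug effect between cohorts passed the edgeR test with all samples.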

How the results depend on the processing

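The count of 0 called genes was also obtained with RLE normalization, no filter on low counts, a mean of at least 1 CPM, the 7 mice alone, cohort or Ddx3y as a covariate, either cohort alone, limma voom with sample weights, robust edgeR and no minimum fold change. It was 2 with DESeq2, ranged from 0 to 689 when each mouse was left out, and was 252 in a fit of the 7 mice alone without WT-Tacr 3, an alternative chosen after seeing the data. The 2168 genes at an unadjusted p under 0.05 became 969 with the 7 mice alone, 1087 within Imm2 and 506 to 4171 when each mouse was left out. The count of 0 for the difference between cohorts became 1 (Plin4) with the 7 mice alone and stayed at 0 when each mouse but WT-Tacr 1 was left out. WT-Tacr 1 is the only drug-treated mouse of its cohort and was not left out there. The stroke-response median ranged from -1.52 to -0.46 when each mouse was left out, and was -0.71 or -0.69 with the list taken from Rag2-/- or NSG mice alone, both added after seeing the data. Of 96 genes followed through these alternatives, 90 kept the sign of their difference throughout, and of 72 times that one of them passed the threshold, 70 were in a fit without WT-Tacr 3. The sign turned for Rbfox3 without WT-Tacr 1 (leave-one-out range -0.0264 to 0.41), for Pecam1 without WT-Tacr 1, WT 3 or WT 4 (range -0.21 to 0.12), for Fkbp1a within TF (0.0801), and within Imm2 for Nfatc2 (0.0165), Nfatc3 (0.034) and Fkbp5 (0.14). The cause was not tested. Of 41 lists, 29 kept the sign of their median with RLE normalization, no filter on low counts, either cohort alone and each mouse left out. The other alternatives were not run for these lists. The 2 added lists without the genes that led to them were chosen after seeing the data. No paired analysis was possible because the numbers ending the titles name mice, not pairs, and the compared groups share fewer than 2 of them.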

Other observations

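Several gene groups not described above had few or no members at an unadjusted p under 0.05 between WT-Tacr and WT. Cytosolic chaperone genes had a median log2 fold change of 0.07, with 2 of 14 higher at an unadjusted p under 0.05, Hsp90aa1 (0.21) and Hsph1 (0.22), both without overlap. Stress and glucocorticoid-response genes had a median of -0.12 with 2 of 15 lower. Mt1, a metal-binding protein gene, was at 180, 112 and 175 CPM under tacrolimus and at 228, 256, 184 and 209 CPM in untreated mice (-0.50 ± 0.19). Interneuron peptide genes had a median of 0.10, with Vip at 33.0, 49.3 and 32.5 CPM against 25.6, 29.1, 28.4 and 25.8 CPM. Cell cycle genes (median -0.17, 1 of 14 lower), neutrophil genes (-0.25, 1 of 7 lower), mitochondrially encoded respiratory genes (-0.15, 1 of 13 lower), striatal and other subcortical genes (0.11, 0 of 16) and blood genes (0.44, 0 of 5) made up the remaining lists. The blood median was 1.60 within Imm2 and -1.07 within TF, and the neutrophil median was 1.31 within Imm2 and -0.73 within TF. The neutrophil median was 0.27 without WT-Tacr 2 and 0.56 without WT 4, the subcortical median -0.54 without WT-Tacr 3 and -0.14 without WT 2, and the blood median -0.91 without WT-Tacr 1.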
